A study of Mus musculus with 64 samples.

Results

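Genes that carry, activate, inactivate, bind or respond to thyroid hormone were followed through 62 bulk RNA sequencing libraries of mouse hypothalamus and prefrontal cortex (PFC). The 8 genes were Dio2, Dio3, Thra, Thrb, Slco1c1, Hr, Klf9 and Crym, out of 55401 genes in the count table, and each was found by the symbol that belongs to its gene identifier. They were chosen by a measured value, the high level of Dio2 in the PFC 3 h after injection, so the libraries of the PFC at 3 h are described without a test, and tests were kept to comparisons that hold none of those libraries. The hypothalamus libraries at 3 h came from the same mice, so tests that use them are not independent of that choice. All 8 genes passed the filter on low counts and were among the 18971 genes tested.

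Thyroid hormone reaches the brain mostly as the prohormone T4, which crosses the blood-brain barrier through transporters such as OATP1C1, the product of Slco1c1. In the brain, the type 2 deiodinase encoded by Dio2, made chiefly by astrocytes and by the tanycytes that line the ventricle of the hypothalamus, turns T4 into the active hormone T3, and the type 3 deiodinase encoded by Dio3 inactivates both. T3 acts through the nuclear receptors encoded by Thra and Thrb. Hr, which encodes a corepressor of nuclear receptors, and Klf9, which encodes a zinc finger transcription factor, are targets of T3 in brain, and Crym encodes mu-crystallin, a cytosolic protein that binds T3.

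The study followed 32 chow-fed, group-housed male C57BL/6J mice, 10 weeks old at the start, which had been given sham saline injections on the 3 days before. Each mouse received 1 intraperitoneal injection of 3 mg/kg psilocybin, a serotonergic psychedelic, or of isotonic saline (vehicle), and was killed 3 h or 4 weeks later, 4 h after lights on, which gave 8 groups of 8 libraries by region, treatment and time. The mice were wild type, both regions came from the same mice, and mice killed 4 weeks after injection were older at harvest, so time since injection cannot be told apart from age or from the day of harvest. The labels give a cage number from 1 to 8 and an extraction pool, which held cages 1 to 4 or cages 5 to 8 of 1 region.

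The 62 libraries held between 8061033 and 70361839 counted reads. The other 2 of the 64, hypothalamus vehicle 3 h replicate 2 and PFC psilocybin 4 weeks replicate 3, held fewer than 1000000 and were left out, so these groups had 7 libraries. The regions matched their labels, since the summed level of 6 cortical excitatory neuron markers was 1982 to 3710 counts per 1000000 (CPM, scaled by TMM) in the PFC libraries and 66.3 to 249.5 CPM in the hypothalamus libraries, and the summed level of 8 hypothalamic markers was 1.09 to 13.7 CPM in the PFC and 351 to 2632 CPM in the hypothalamus. Hypothalamus psilocybin 4 weeks replicate 5 stood apart, with 2632 CPM of hypothalamic markers against 474 to 777 CPM in the rest of its group, and hypothalamus vehicle 4 weeks replicate 6 held 200.4 CPM of 7 wound healing and immune genes against 37.6 to 66.6 CPM, and leaving the latter out changed no call of a member. These are bulk tissue values, in which fewer cells of a type and less RNA per cell cannot be told apart.

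The genes lie at separate sites in the GRCm38 assembly, with Dio2 (ENSMUSG00000007682.6) at chr12:90724552-90738438 on the minus strand and Klf9 (ENSMUSG00000033863.2) at chr19:23141226-23168134, Hr (ENSMUSG00000022096.14) at chr14:70552212-70572900 and Thrb (ENSMUSG00000021779.17) at chr14:17660261-18033792, all on the plus strand. Dio3 (ENSMUSG00000075707.5) is at chr12:110279068-110280708, Thra (ENSMUSG00000058756.13) at chr11:98740638-98768403 and Slco1c1 (ENSMUSG00000030235.17) at chr6:141524368-141569704 on the plus strand, and Crym (ENSMUSG00000030905.5) is at chr7:120186380-120202111 on the minus strand. Dio2 overlaps the oppositely transcribed Gm26512 by 238 bases, and Thra overlaps the oppositely transcribed Nr1d1 by 472 bases. Over all 64 libraries Gm26512 held 2672 counts against 135311 for Dio2, and Nr1d1 held 107988 against 722907 for Thra. Counts are per gene and do not separate the receptor isoforms of Thra or Thrb.

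RefSeq promoter windows on GRCm38.p6 were available for 5 of the 8 genes, namely Slco1c1, Dio2, Dio3, Thrb and Klf9. The 250 bases upstream of the annotated start are shown for Dio2 and Klf9, the members with a window that passed a test between times in the hypothalamus. The window of Dio2 is chr12:90739039-90739288, minus strand, and that of Klf9 is chr19:23140976-23141225, plus strand. The RefSeq start of Dio2 does not coincide with that of the counted gene model but lies upstream of its 5′ end at 90738438, so the window is not adjacent to the counted gene. Capitals mark the cAMP response element TGACGTCA in Dio2 and its half-site TGACG in Klf9, and both are printed 5′ to 3′ along the gene:
Dio2: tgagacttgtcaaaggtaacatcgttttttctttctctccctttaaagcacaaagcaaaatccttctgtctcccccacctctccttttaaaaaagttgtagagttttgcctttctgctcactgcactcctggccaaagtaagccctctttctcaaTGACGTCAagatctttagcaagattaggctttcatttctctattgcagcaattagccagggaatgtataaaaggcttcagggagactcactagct
Klf9: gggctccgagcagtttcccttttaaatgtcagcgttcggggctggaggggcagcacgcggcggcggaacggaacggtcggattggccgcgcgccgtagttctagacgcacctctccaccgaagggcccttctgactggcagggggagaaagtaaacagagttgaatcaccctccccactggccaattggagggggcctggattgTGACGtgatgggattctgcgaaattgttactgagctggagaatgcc
The motifs searched on both strands were the thyroid hormone response half-site AGGTCA, the cAMP response element TGACGTCA, its half-site TGACG, which overlaps it, the E-box CACGTG and the palindromic glucocorticoid response element. The Dio2 window held TGACGTCA 95 to 88 bases before the start, a motif found in 1.55% of all 32851 windows of the same length, and the Klf9 window held TGACG 46 to 42 bases before the start, found in 17.8% of windows. None of the 6 windows of the members (Thrb has 2) held the glucocorticoid response element. Only 0.00913% of all windows hold it, so its absence from these windows carries no information. Only a Thrb window held AGGTCA, which 14% of all windows hold. These matches describe letters in the windows, and no binding was measured here.

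In both regions Thra was the highest of the 8 genes per length and Dio3 the lowest. Over the 31 PFC libraries Thra averaged 152 CPM per kb of exonic length, followed by Klf9 at 51.1, Dio2 at 35.1, Crym at 18.5, Slco1c1 at 15.5, Thrb at 10.8, Hr at 6.91 and Dio3 at 0.505 CPM per kb. Over the 31 hypothalamus libraries the order was Thra at 104, Klf9 at 24.5, Hr at 8.45, Slco1c1 at 5.43, Thrb at 4.17, Crym at 3.93, Dio2 at 3.85 and Dio3 at 0.252 CPM per kb. The PFC mean of Dio2 includes the libraries at 3 h by which the genes were chosen, and at 4 weeks Dio2 averaged 27.2 CPM per kb after vehicle and 28.9 after psilocybin, between Klf9 at 44.6 and 45.2 and Crym at 19.9 and 17.0 CPM per kb. In the hypothalamus the mean of Dio2 over all libraries lay within the spread of those of Thrb and Crym, but its place differed by group. After vehicle and psilocybin, Dio2 averaged 4.49 and 5.49 CPM per kb at 3 h and 2.60 and 2.92 at 4 weeks. In the same order Thrb averaged 4.17 and 4.17 at 3 h and 4.38 and 3.98 at 4 weeks. Crym averaged 4.46 and 2.48 at 3 h and 4.21 and 4.66 at 4 weeks. Dio3 rested on 2 to 68 counts per library in the PFC and 0 to 43 in the hypothalamus, so its values carry large counting error.

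**Figure D1:**
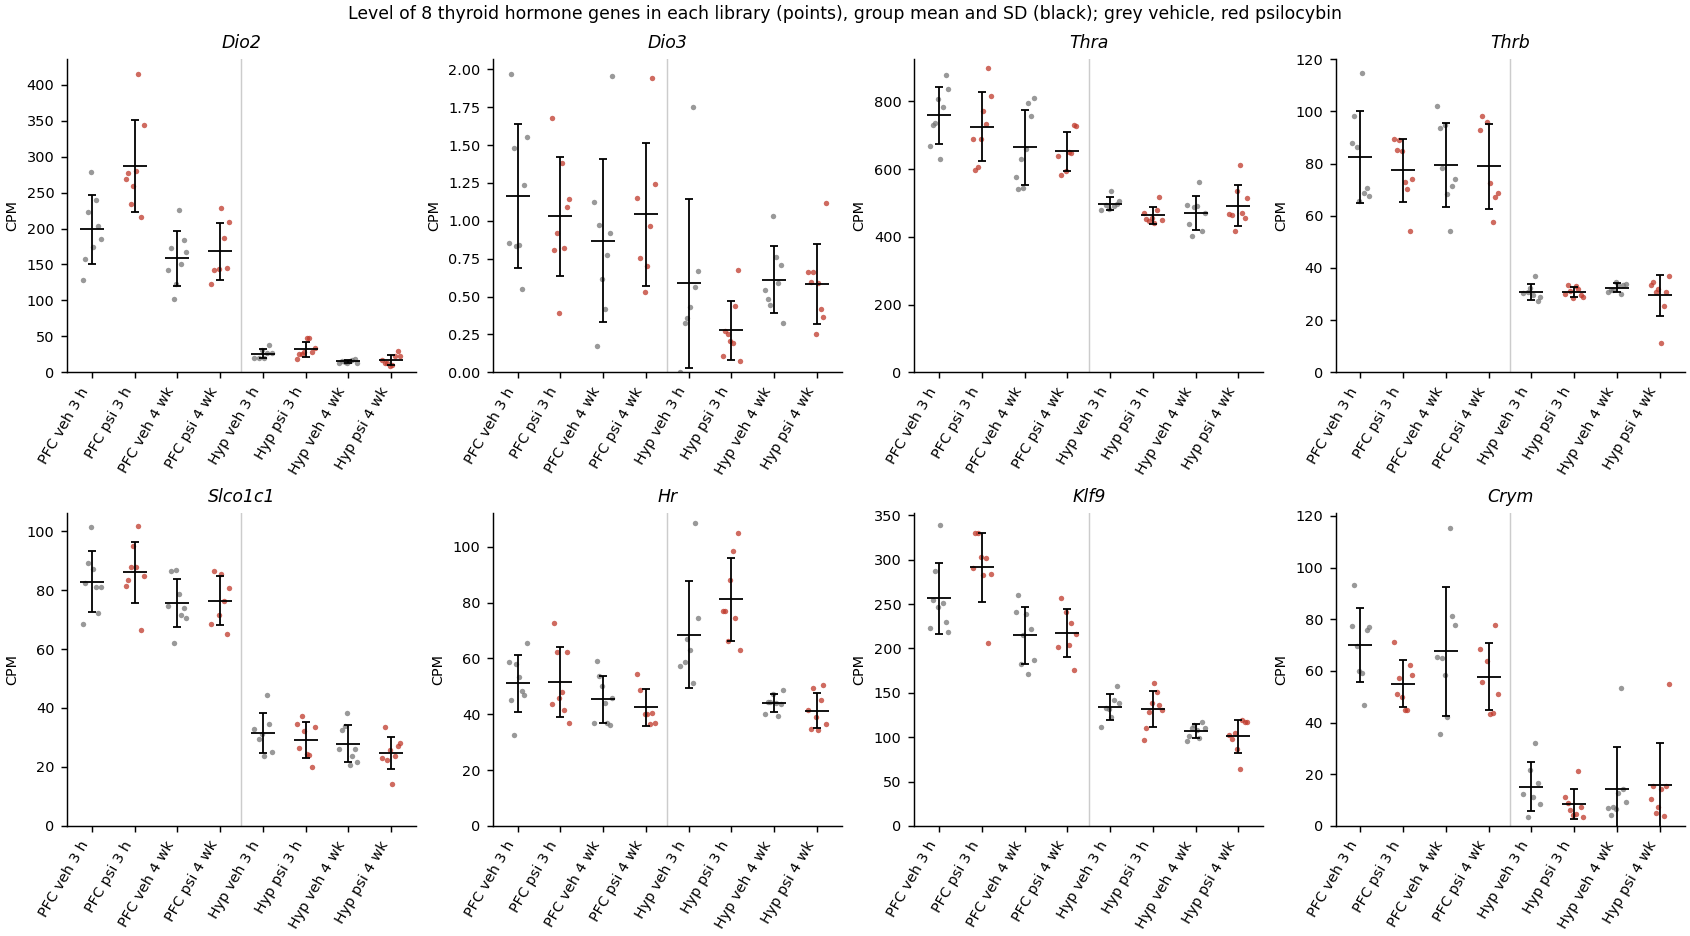
Level of each of the 8 genes in every library, in CPM, with 1 panel per gene and its own axis. Points are libraries in the 8 groups (veh, vehicle; psi, psilocybin; Hyp, hypothalamus), black marks are the group mean and SD (cut at 0 for Crym), and the vertical line separates the regions. Dio2 was highest in PFC psilocybin 3 h (mean 286.8 CPM), and Hr was the gene whose hypothalamus levels at 3 h exceeded its PFC means.

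The level of Dio2 in the PFC at 3 h is the value by which the genes were chosen, and it is given here as a description. In the 8 libraries of PFC psilocybin 3 h, Dio2 ran from 215 through a median of 273 to 416 CPM, and in the 8 libraries of PFC vehicle 3 h from 128 through 195 to 279 CPM. The means were 286.8 ± 64.2 and 198.9 ± 48.2 CPM (SD, n = 8 each), a fitted log2 difference of 0.52 (SE 0.16). The groups overlapped, with 3 of the 8 psilocybin libraries above every vehicle library. The difference was 0.40 within cages 1 to 4 and 0.66 within cages 5 to 8 on the log2 scale.

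At 4 weeks the PFC levels of Dio2 were lower in both arms. PFC psilocybin 4 weeks ran from 123 through 145 to 228 CPM, with a mean of 168 ± 40.0 CPM (SD, n = 7), and PFC vehicle 4 weeks from 102 through 159 to 226 CPM, with a mean of 158 ± 38.3 CPM (SD, n = 8). Against these, the log2 difference at 3 h was 0.80 (SE 0.17) after psilocybin, with 7 of 8 libraries above every library at 4 weeks, and 0.35 (SE 0.16) after vehicle, with 2 of 8 above. The group means of Dio2 therefore fell in the order PFC psilocybin 3 h, PFC vehicle 3 h, PFC psilocybin 4 weeks, PFC vehicle 4 weeks, hypothalamus psilocybin 3 h, hypothalamus vehicle 3 h, hypothalamus psilocybin 4 weeks and hypothalamus vehicle 4 weeks. Neighbours in that order that differed by less than the SD of both groups were PFC vehicle 3 h and PFC psilocybin 4 weeks, the 2 PFC groups at 4 weeks, the 2 hypothalamus groups at 3 h and the 2 hypothalamus groups at 4 weeks.

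The other members showed smaller differences between psilocybin and vehicle in the PFC at 3 h. Klf9 averaged 291 ± 38.9 CPM after psilocybin and 256 ± 40.0 CPM after vehicle (SD, n = 8 each), a log2 difference of 0.18 (SE 0.10), and all but 1 of the psilocybin libraries lay between 283 and 330 CPM, with replicate 7 at 206 CPM. Crym was lower after psilocybin by a log2 difference of -0.35 (SE 0.35), at 54.9 ± 9.08 against 69.9 ± 14.3 CPM. Thrb, Thra, Slco1c1, Hr and Dio3 had log2 differences between -0.17 and 0.06. No member had groups that did not overlap, which held for 0.0105% of all genes tested in that comparison.

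Astrocytes are a main site of Dio2 in the cortex, and some of the genes that followed it between libraries are astrocyte genes. With the group means and the extraction pool removed, the genes whose log2 CPM followed Dio2 most closely over the 31 PFC libraries were Pon2 (Pearson r 0.913), Wwtr1 (0.913), Slc1a2 (0.904), Ptn (0.894) and S1pr1 (0.894). Slc1a2 encodes the main astrocytic glutamate transporter, and S1pr1 a receptor for sphingosine 1-phosphate. Among the members, Dio2 followed Slco1c1 (r 0.746) and Klf9 (r 0.479) and ran against Crym (r -0.51). These values are across libraries that share extraction pools and the makeup of the dissected tissue, and are given as a description.

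The summed level of 8 astrocyte markers was 8608 ± 1232 CPM in PFC psilocybin 3 h, 8089 ± 1322 in PFC vehicle 3 h, 7559 ± 1141 in PFC psilocybin 4 weeks and 7400 ± 1256 in PFC vehicle 4 weeks (SD), and none of the 8 markers was at 0 in any of these groups. Given as a description, the median log2 difference of the 8 markers in the PFC was 0.07 between psilocybin and vehicle at 3 h, 0.19 between 3 h and 4 weeks after vehicle and 0.33 between 3 h and 4 weeks after psilocybin, in the same direction as Dio2. Per 1000 CPM of these markers, Dio2 stood at 33.1 ± 3.94 CPM in PFC psilocybin 3 h, 24.4 ± 2.72 in PFC vehicle 3 h, 22.1 ± 2.33 in PFC psilocybin 4 weeks and 21.2 ± 2.29 in PFC vehicle 4 weeks. On that ratio 7 of the 8 psilocybin libraries at 3 h lay above every vehicle library at 3 h, and all 8 lay above the 7 psilocybin libraries at 4 weeks. Slc1a2, among the markers and among the genes closest to Dio2 above, averaged 4571 CPM over the 31 PFC libraries. The sum and these ratios therefore rest mostly on that marker. The part of astrocyte content in the level of Dio2 was not tested beyond these values.

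**Figure D2:**
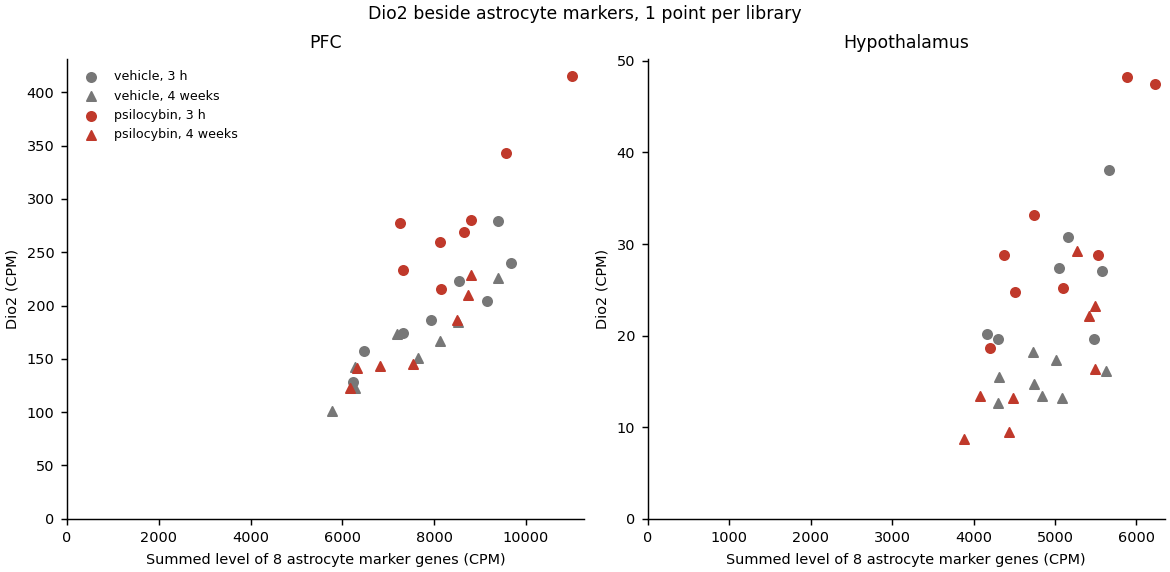
Dio2 level (vertical axis, CPM) against the summed level of 8 astrocyte marker genes (horizontal axis, CPM), 1 point per library, PFC left and hypothalamus right, each with its own vertical axis. Grey is vehicle, red psilocybin, circles 3 h and triangles 4 weeks. In the PFC the red circles lie above most other points at the same astrocyte level, with a mean ratio of 33.1 CPM of Dio2 per 1000 CPM of markers against 24.4 in vehicle 3 h.

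To ask whether psilocybin changed these genes elsewhere, psilocybin and vehicle were compared in the hypothalamus at 3 h and 4 weeks and in the PFC at 4 weeks. None of the 8 members passed the quasi-likelihood test of edgeR, Benjamini-Hochberg adjusted, in any of the 3 comparisons, and 0% of all genes passed in each. DESeq2 and limma-voom called no member either, and over all genes DESeq2 called 0, 13 and 19 and limma-voom 0 in each. At an unadjusted p under 0.05 edgeR listed 337, 1823 and 456 genes, of which 1, 0 and 0 were members.

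That member was Dio3 in the hypothalamus at 3 h. It ran from 0.08 through a median of 0.23 to 0.68 CPM in the 8 psilocybin libraries and from 0 through 0.43 to 1.75 CPM in the 7 vehicle libraries. The library at 0 held no Dio3 read among 12793712 counts, which allows up to 0.222 CPM on the same TMM scale by counting error. The log2 difference was -1.08 (SE 0.43, unadjusted p = 0.0151, adjusted p = 1 by edgeR), on 2 to 12 counts per psilocybin library, and the groups overlapped.

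For Dio2 in the hypothalamus at 3 h the log2 difference between psilocybin and vehicle was 0.29, with a 95% interval from -0.05 to 0.64, and for Hr 0.26, from -0.01 to 0.52. Crym was lower by -0.79, with an interval from -1.60 to 0.02. The median of 6 striatal markers in this comparison was -0.54, with 0 called, and their part in Crym was not tested. Thra averaged 464 ± 24.5 CPM after psilocybin and 497 ± 18.9 CPM after vehicle, and although 7 of 8 psilocybin libraries lay below every vehicle library the log2 difference was -0.09 (interval -0.23 to 0.04). Klf9 and Thrb differed by -0.01 each, with intervals from -0.22 to 0.19 and from -0.25 to 0.24, and Slco1c1 by -0.16, from -0.40 to 0.09.

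At 4 weeks the intervals in the hypothalamus were -0.23 to 0.47 for Dio2, -0.35 to 0.16 for Hr, -0.28 to 0.11 for Klf9 and -0.07 to 0.20 for Thra. In the PFC at 4 weeks they were -0.27 to 0.40 for Dio2, -0.35 to 0.18 for Hr, -0.17 to 0.23 for Klf9 and -0.17 to 0.10 for Thra. The widest were those of Dio3 and Crym, which reached from -0.97 to 1.01 over these comparisons. The psilocybin difference at 3 h minus that at 4 weeks in the hypothalamus was not called for any member by edgeR, DESeq2 or limma-voom. Each of them called 0 of all 18971 genes. By edgeR the unadjusted p was under 0.05 for 999 genes and 0 members.

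**Figure D3:**
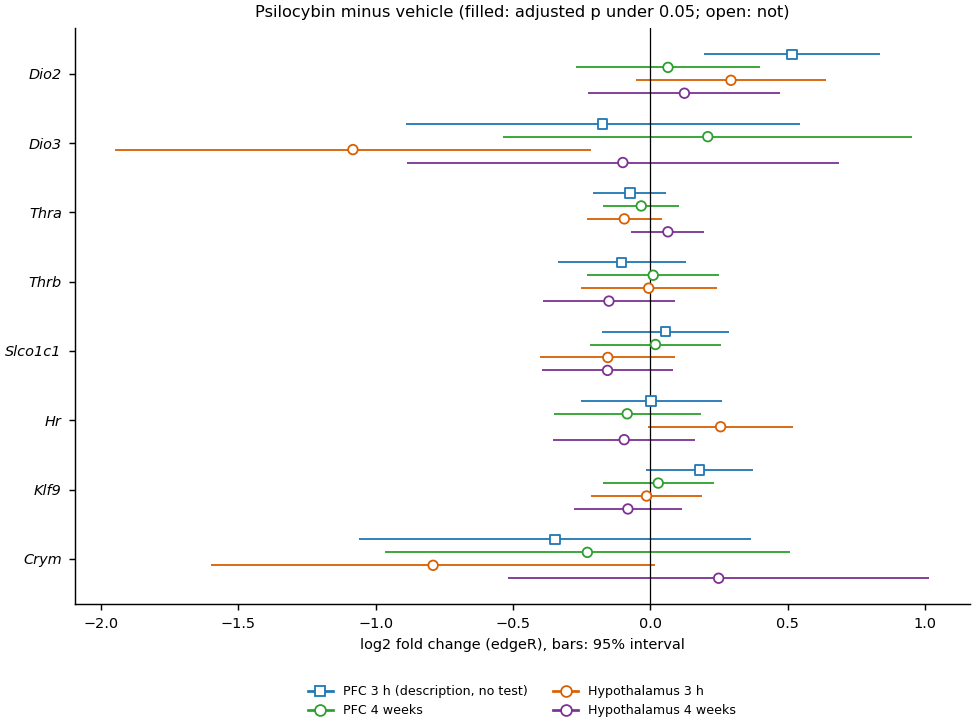
Difference between psilocybin and vehicle for the 8 genes (vertical axis) as log2 fold change (horizontal axis) in PFC and hypothalamus at 3 h and 4 weeks. Points are edgeR estimates and bars their 95% intervals, squares mark the PFC at 3 h, which is a description without a test, and all circles are open because none passed. Dio2 in the PFC at 3 h stands at 0.52, and the intervals of Dio3 and Crym are the widest.

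The pathway genes outside the members were followed through 5 lists, covering transport and carrier proteins (12 of 13 genes tested), hormone metabolism (10 of 17), receptor partners and coregulators (16 of 16), T3-responsive genes (23 of 25) and the hypothalamus-pituitary-thyroid axis (13 of 14). None of these genes passed edgeR's test between psilocybin and vehicle in the hypothalamus at 3 h or 4 weeks or in the PFC at 4 weeks. The list medians lay between -0.12 and 0.06 on the log2 scale, against -0.001 for all genes in the hypothalamus at 3 h, 0.01 at 4 weeks and -0.01 in the PFC at 4 weeks.

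Hypothalamus libraries taken 3 h after injection held more Dio2 and Hr than those taken 4 weeks after injection, in both treatment arms. Klf9 also had a higher mean at 3 h in both arms, but passed the test only after psilocybin. After vehicle, 2 of the 8 members were higher at 3 h, where 0.685% of all genes were called in either direction and 0.522% were higher. After psilocybin, 3 of the 8 were higher, where 1.16% were called and 0.743% were higher. No member was called lower in either arm. The arms share no libraries, and injection, age and day of harvest differ together between the times.

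Hr showed the clearest separation. After vehicle it ran from 51.1 through a median of 63.1 to 108 CPM at 3 h and from 39.5 through 44.3 to 48.9 CPM at 4 weeks, and the groups did not overlap, as for 0.669% of all genes in that direction. After psilocybin it ran from 63.0 through 77.2 to 105 CPM at 3 h and from 34.3 through 40.2 to 50.5 CPM at 4 weeks, again without overlap, as for 0.285% of all genes. The log2 difference was 0.63 after vehicle (SE 0.13, adjusted p = 0.00677) and 0.98 after psilocybin (SE 0.13, adjusted p = 5.06e-07) by the quasi-likelihood test of edgeR, Benjamini-Hochberg adjusted. Within cages 1 to 4 and cages 5 to 8 the values were 0.47 and 0.75 after vehicle and 0.92 and 1.04 after psilocybin. Vehicle 3 h replicate 7, at 108 CPM, lay apart from its group, and without it the vehicle difference was 0.49 with an edgeR adjusted p of 0.0669.

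Dio2 in the hypothalamus stood far below its PFC level and differed between times in the same direction. After vehicle it ran from 19.6 through 27.0 to 38.1 CPM at 3 h and from 12.6 through 15.1 to 18.2 CPM at 4 weeks, without overlap. After psilocybin it ran from 18.7 through 28.8 to 48.2 CPM at 3 h and from 8.70 through 14.9 to 29.2 CPM at 4 weeks, with 3 of 8 libraries at 3 h above every library at 4 weeks. The log2 difference was 0.76 after vehicle (SE 0.18, adjusted p = 0.0168) and 0.93 after psilocybin (SE 0.17, adjusted p = 0.000593) by the quasi-likelihood test of edgeR, Benjamini-Hochberg adjusted. Within cages 1 to 4 and cages 5 to 8 it was 0.76 and 0.79 after vehicle and 0.95 and 0.93 after psilocybin.

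The vehicle call of Dio2 depended on single libraries and on the model. Its edgeR adjusted p was 0.112 without vehicle 3 h replicate 4, 0.0742 without vehicle 3 h replicate 7, 0.0575 without vehicle 4 weeks replicate 8 and just above the threshold of 0.05 without the extraction pool in the model, at log2 differences between 0.64 and 0.79. The psilocybin call was lost when only its own 2 groups were fitted (adjusted p = 0.0894, log2 difference 0.91). Without psilocybin 4 weeks replicate 5, the library that stood apart in hypothalamic markers, the psilocybin differences were 0.82 for Dio2 (adjusted p = 0.00403) and 0.93 for Hr (adjusted p = 5.76e-06) by edgeR. Gm26512, which shares 238 bases with Dio2, had log2 differences of 0.18 (SE 0.26) after vehicle and 0.62 (SE 0.25) after psilocybin, neither of them called.

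Klf9 averaged 134 ± 14.7 CPM at 3 h and 107 ± 7.68 CPM at 4 weeks after vehicle (SD, n = 7 and 8), and 132 ± 20.6 and 101 ± 18.5 CPM after psilocybin (SD, n = 8 each). In each arm 6 libraries at 3 h lay above every library at 4 weeks. The log2 difference was 0.31 after vehicle (SE 0.10, adjusted p = 0.198) and 0.38 after psilocybin (SE 0.10, adjusted p = 0.0345) by edgeR's quasi-likelihood test. Between the arms these differed by 0.07 (SE 0.14, unadjusted p = 0.631 by the same test), so the call is not particular to psilocybin. Within cages 1 to 4 and cages 5 to 8 the psilocybin difference was 0.28 and 0.47. After psilocybin the lowest library at 4 weeks was replicate 5, the one that stood apart, at 64.6 CPM, and without it the difference was 0.29 with an edgeR adjusted p of 0.108. The vehicle difference passed with limma-voom (adjusted p = 0.000928) and when only its 2 groups were fitted (adjusted p = 0.00758).

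The other members did not pass between times in the hypothalamus. Dio3 after psilocybin had a log2 difference of -1.12 (SE 0.43, edgeR adjusted p = 0.165) and Crym of -0.82 (SE 0.39, edgeR adjusted p = 0.268), while after vehicle they had -0.14 (SE 0.40) and 0.22 (SE 0.39). The median of 6 striatal markers was -0.56 after psilocybin and 0.37 after vehicle, with 0 called in each arm, and their part in Crym was not tested. Slco1c1 had 0.23 (SE 0.12) in both arms. Thra lay at 0.07 (SE 0.07) after vehicle and -0.08 (SE 0.07) after psilocybin, and Thrb at -0.07 (SE 0.12) and 0.08 (SE 0.12).

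Across the hypothalamus libraries, the genes that followed Dio2 closely included Purb (Pearson r 0.829), mt-Nd2 (0.829), Itgav (0.821) and Klf9 (0.791), over 31 libraries with the group means and the extraction pool removed. Klf9 was the only other member among them. Thra ran against Klf9 in both regions (r -0.649 in the hypothalamus and -0.718 in the PFC), and Thrb ran with it (0.678 and 0.626). Hypothalamus psilocybin 4 weeks replicate 5 had the highest Thra (613 CPM) and the lowest Klf9 (64.6) and Thrb (11.4) of its group. PFC psilocybin 3 h replicate 7 likewise had the highest Thra (900 CPM) and the lowest Klf9 (206) and Thrb (54.1). Both libraries are in these correlations, which were not computed without them. These are descriptions over libraries that share tissue makeup and pools.

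Of the astrocyte markers, 0 of 8 passed between times in the hypothalamus in either arm, and their summed level was 5058 ± 605 CPM at 3 h and 4831 ± 431 CPM at 4 weeks after vehicle, and 5071 ± 744 and 4817 ± 670 CPM after psilocybin. Per 1000 CPM of those markers, Dio2 was 5.13 ± 1.02 against 3.14 ± 0.447 CPM after vehicle and 6.19 ± 1.36 against 3.43 ± 1.14 CPM after psilocybin. Of 6 tanycyte markers other than Dio2 and Crym, 0 passed, with median log2 differences of -0.11 after vehicle and -0.20 after psilocybin, and of 7 endothelial markers 1 was higher in each arm, with medians of 0.17 and 0.41.

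Of the listed pathway genes, 1 passed between times in the hypothalamus, which is 1 of the 23 tested T3-responsive genes and 0 in the other 4 lists, where 0.685% of all genes were called after vehicle and 1.16% after psilocybin. A count of 1 over the lists is near that background and is no result about them. Bcl6, which encodes a transcriptional repressor and stood in the list of T3-responsive genes, averaged 27.6 ± 3.77 CPM at 3 h and 18.2 ± 2.04 CPM at 4 weeks after vehicle, and 26.6 ± 4.62 and 17.5 ± 1.72 CPM after psilocybin. Its log2 difference was 0.60 in both arms (edgeR adjusted p = 5.50e-05 and 1.75e-05). The median of the 23 tested T3-responsive genes was 0.06 after vehicle and 0.05 after psilocybin, against 0.002 and -0.03 over all genes.

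**Figure D4:**
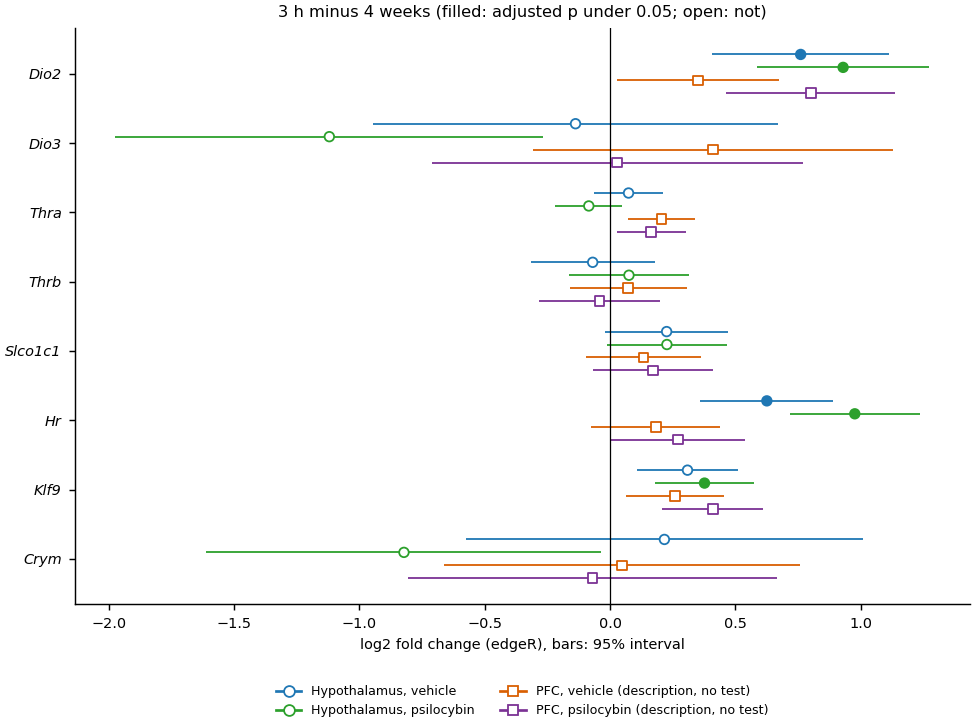
Difference between 3 h and 4 weeks for the 8 genes (vertical axis) as log2 fold change (horizontal axis), by region and treatment. Points are edgeR estimates with 95% intervals, filled where the adjusted p was under 0.05, and squares mark PFC comparisons, which are descriptions without a test. Hr (0.63 and 0.98) and Dio2 (0.76 and 0.93) are filled in both hypothalamus arms. Klf9 is filled after psilocybin (0.38) and open after vehicle (0.31).

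In the PFC the same contrast between times, given as a description, was 0.26 (SE 0.10) after vehicle and 0.41 (SE 0.10) after psilocybin for Klf9, and 0.18 (SE 0.13) and 0.27 (SE 0.13) for Hr. For Klf9 after psilocybin, 7 of 8 libraries at 3 h lay above every library at 4 weeks. Thra had 0.21 (SE 0.07) and 0.16 (SE 0.07), and the members other than these and Dio2, whose values are given above, had differences between -0.07 and 0.41, the last being Dio3 after vehicle with an SE of 0.36.

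Between regions, 6 of the 8 genes were higher in the PFC than in the hypothalamus at 4 weeks in both arms, where 29.5% of all genes were higher after vehicle and 28.6% after psilocybin. Dio2 had the largest difference of the 8, a log2 difference of 3.38 after vehicle (SE 0.18, adjusted p = 3.05e-24) and 3.32 after psilocybin (SE 0.18, adjusted p = 1.43e-23) by the quasi-likelihood test of edgeR, Benjamini-Hochberg adjusted, which after vehicle is 10.4-fold. Every PFC library lay above every hypothalamus library for Dio2, Thrb, Slco1c1 and Klf9 in both arms, as for 15.4% of genes after vehicle and 12.3% after psilocybin.

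Gm26512, which shares 238 bases with Dio2 on the other strand, was also higher in the PFC, with log2 differences of 1.16 (SE 0.25, edgeR adjusted p = 5.61e-05) and 1.30 (SE 0.25, edgeR adjusted p = 1.50e-05). Of the 8 astrocyte markers 2 were higher in the PFC and 2 lower after vehicle, and 2 higher and 3 lower after psilocybin, with median log2 differences of -0.08 and -0.17. Their summed level was higher in the PFC, at 7400 against 4831 CPM after vehicle and 7559 against 4817 CPM after psilocybin. Per 1000 CPM of these markers, Dio2 was 21.2 against 3.14 CPM after vehicle and 22.1 against 3.43 CPM after psilocybin, a smaller ratio between regions than that of the Dio2 level itself. The PFC sum rests mostly on Slc1a2, at a mean of 4571 CPM over the 31 PFC libraries. Of the 6 tanycyte markers 4 were lower and 0 higher in the PFC after vehicle, and 5 lower and 0 higher after psilocybin. The part of cell makeup in the region difference of Dio2 was not tested beyond these values.

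The transporter gene Slco1c1 was 2.75-fold and 3.10-fold higher in the PFC, at 75.6 ± 8.29 against 27.9 ± 6.33 CPM after vehicle. Endothelial markers moved with it, with 6 of 7 higher in the PFC after vehicle and 5 of 7 after psilocybin, and 1 lower in each arm (median log2 differences of 0.49 and 0.43), and their part in the level of Slco1c1 was not tested. Among the receptors, Thrb was 2.42-fold and 2.70-fold higher and Thra 1.40-fold and 1.31-fold higher. Nr1d1, which shares 472 bases with Thra on the other strand, had a log2 difference of 0.21 (SE 0.07) and 0.14 (SE 0.07), against 0.49 (SE 0.07) and 0.39 (SE 0.07) for Thra. Klf9 was 2.01-fold and 2.16-fold higher, while Hr, the other T3 target, had log2 differences of 0.04 (interval -0.22 to 0.29) and 0.05 (interval -0.22 to 0.31) and was not called.

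Crym was 5.44-fold higher in the PFC after vehicle and 3.91-fold after psilocybin, on widely spread hypothalamus values. They ran from 4.17 through 8.16 to 53.4 CPM after vehicle and from 3.88 through 12.2 to 54.9 CPM after psilocybin, against 35.4 to 115 and 43.4 to 77.9 CPM in the PFC. Within cages 1 to 4 the log2 difference was 3.17 after vehicle and 2.72 after psilocybin, and within cages 5 to 8 it was 1.81 (edgeR adjusted p = 0.0225) and 1.26 (edgeR adjusted p = 0.100). In each of the 4 hypothalamus groups the library with the highest Crym was also the one with the highest summed level of 6 striatal markers, which was 401, 227, 406 and 503 CPM in vehicle 3 h, psilocybin 3 h, vehicle 4 weeks and psilocybin 4 weeks, against highest values of 250.8, 208, 184 and 286.6 CPM in the remaining libraries. Without the high library at 4 weeks, the log2 difference of Crym between regions was 2.97 after vehicle and 2.45 after psilocybin. The part of dissected striatum in Crym was not tested further.

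Dio3 had log2 differences between regions of 0.52 after vehicle (SE 0.37, edgeR adjusted p = 0.239) and 0.83 after psilocybin (SE 0.39, edgeR adjusted p = 0.0634). It passed after psilocybin when any 1 of 3 libraries was left out, namely hypothalamus replicate 8 (adjusted p = 0.0343), PFC replicate 4 (0.0434) or PFC replicate 5 (0.0492). For the other called genes the values within cages 1 to 4 and within cages 5 to 8 were 3.27 and 3.46 for Dio2, 1.52 and 1.00 for Thrb, 1.25 and 1.65 for Slco1c1, 1.09 and 0.88 for Klf9 and 0.33 and 0.61 for Thra after vehicle, all on the log2 scale.

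At 3 h, given as a description, the region differences of Dio2 were 2.97 (SE 0.18) after vehicle and 3.19 (SE 0.18) after psilocybin. Hr ran the other way at 3 h, with log2 differences of -0.41 (SE 0.13) after vehicle and -0.66 (SE 0.13) after psilocybin, and 7 of 8 PFC psilocybin libraries lay below every hypothalamus psilocybin library.

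Among the other pathway genes, region differences went both ways at 4 weeks, where 29.5% of all genes were higher in the PFC and 25.7% lower after vehicle, and 28.6% higher and 29.4% lower after psilocybin. The list counts are given as a description beside these shares, and several lie near them. After vehicle 5 of 12 tested transport and carrier genes were higher in the PFC and 3 lower, with the organic anion transporter gene Slco3a1 lower at 26.5 ± 2.14 against 45.2 ± 4.59 CPM (log2 difference -0.77, edgeR adjusted p = 5.05e-14). Of 16 receptor partners and coregulators 7 were higher and 4 lower, with the corepressor gene Ncor1 at 0.67 (SE 0.09) and the retinoid X receptor gene Rxra at -0.65 (SE 0.09). Of 23 T3-responsive genes 7 were higher and 12 lower, and of 13 genes of the hypothalamus-pituitary-thyroid axis 4 were higher and 8 lower, with Trh, the gene of thyrotropin-releasing hormone, at 2.79 ± 3.12 CPM in the PFC and 72.7 ± 12.4 CPM in the hypothalamus. Of 10 hormone metabolism genes 3 were higher and 2 lower. After psilocybin the numbers higher and lower were 4 and 4 for transport, 9 and 3 for partners and coregulators, 7 and 12 for T3-responsive genes, 3 and 8 for the axis and 0 and 4 for metabolism. The median over the 8 members was 1.14 after vehicle and 1.27 after psilocybin, against 0.04 and -0.003 over all genes.

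**Figure D5:**
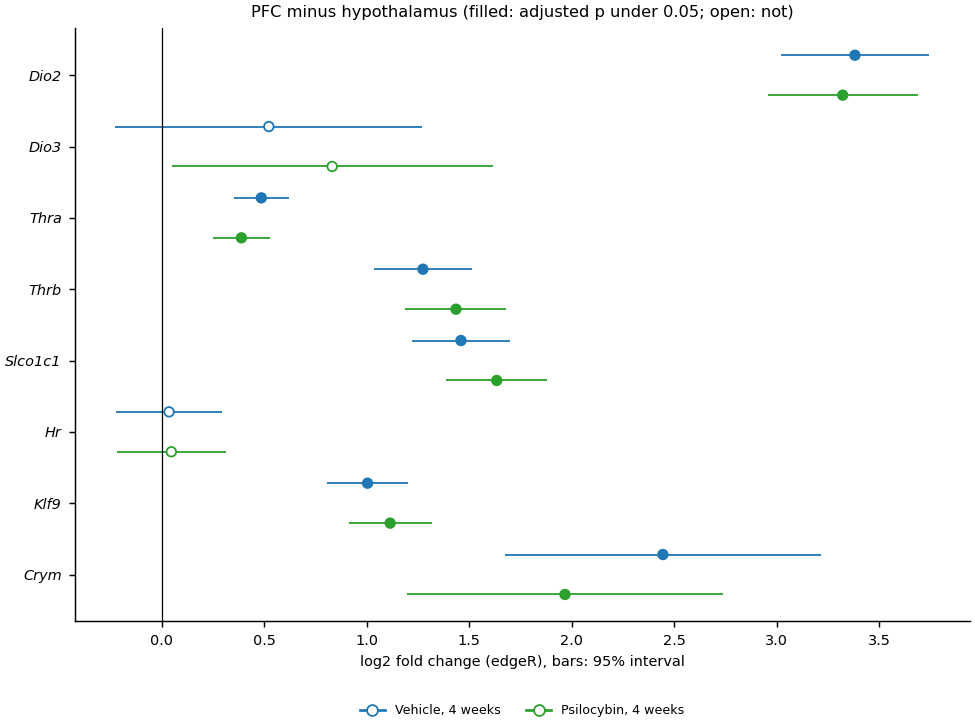
Difference between PFC and hypothalamus at 4 weeks for the 8 genes (vertical axis) as log2 fold change (horizontal axis), after vehicle and after psilocybin. Points are edgeR estimates with 95% intervals, filled where the adjusted p was under 0.05. Dio2 lies at 3.38 and 3.32, Crym has wide intervals around 2.44 and 1.97, and Hr and Dio3 are open.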

How the data were processed

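Raw read counts per gene were deposited in 1 table of 64 libraries and 55401 genes. The authors prepared them from poly-A selected, stranded, paired-end libraries with bcl2fastq 2.20.0, STAR 2.7.2b on GRCm38 and featureCounts 1.6.2 on a GENCODE gene model. The study's methods describe counting by strand only for read pairs, so whether antisense reads were separated is not clear from them. Symbols came from a gene name table that matched 55141 identifiers. No column of another series was present (0 unused).

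Libraries under 1000000 counts were left out (2 of 64). The study left out 1 more library because it was rich in wound healing and immune genes. The sources used here do not name it, and it was kept. Whether it is hypothalamus vehicle 4 weeks replicate 6, described above as high in such genes, is not known. Counts were scaled by TMM, genes were filtered with filterByExpr (minimum count 10), and edgeR 4.0.16 (R 4.3.3) fitted group plus extraction pool over all 8 groups with glmQLFit and glmQLFTest, Benjamini-Hochberg adjustment over 18971 genes and a threshold of 0.05. CPM values are TMM-scaled, and errors are SD over libraries or SE of the fit. Intervals of differences are at the 95% level. Each library has a total of 8061033 counts or more, so counting error matters mainly for Dio3. Intervals from a count of 0 cover counting error only. The fit was tested on simulated data.

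The replicate number is the cage in the labels, and the same treatment, time and number in both regions is 1 mouse. Deviations from group means correlated at a mean r of 0.0806 in the PFC and 0.0723 in the hypothalamus for libraries of the same cage. For different cages the values were -0.0423 and -0.0385. With the extraction pool also removed they were -0.0415 and -0.0236 for the same cage and -0.0294 and -0.0274 for different cages. With only the group means removed, the 2 regions of a mouse correlated at 0.0854 (30 pairs), against -0.0009 for different mice. Replicate pairs differed by more than sampling noise in all 210 pairs checked.

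The 8 genes, the gene lists and the tests were chosen with earlier results of these data known. Named genes were the 8 members, up to 3 genes a list and comparison with the smallest p among those that passed, of which some are named, and the 5 genes closest to Dio2 in each region with a mean of at least 1 CPM. Some of the genes this rule selects are not reported here. Alternatives were another scaling (the size factors of DESeq2), other filters, no extraction pool, cage or mouse as a block, DESeq2 1.42.0, limma 3.58.1 with voom quality weights, all 64 libraries, only the compared groups, each library left out and, chosen after seeing the data, cages 1 to 4 or cages 5 to 8 alone.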

Additional observations from a re-analysis of the deposited data

Results flagged for a closer look

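In 64 combinations of gene and group, 8 had a library whose gap to its nearest neighbour was above the 95% critical value of Dixon's test, where chance gives about 1 in 20. Crym had 3 of them in the hypothalamus, with 21.3 CPM in psilocybin 3 h replicate 6 (the others 3.56 to 11.3), 54.9 CPM in psilocybin 4 weeks replicate 8 (the others 3.88 to 15.4) and 53.4 CPM in vehicle 4 weeks replicate 6 (the others 4.17 to 14.2). Summed striatal markers were the highest of the group in each of these libraries. Dio3 had 1.75 CPM in hypothalamus vehicle 3 h replicate 6 (the others 0 to 0.672) and 1.12 CPM in hypothalamus psilocybin 4 weeks replicate 8 (the others 0.25 to 0.661).

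Thrb was 11.4 CPM in hypothalamus psilocybin 4 weeks replicate 5 (the others 25.6 to 36.9), the library that also stood apart in hypothalamic markers and had the lowest tanycyte marker sum of its group, 106 CPM against 191 to 274. Hr was 108 CPM in hypothalamus vehicle 3 h replicate 7 (the others 51.1 to 74.4), which had the highest summed endothelial (368 CPM), oligodendrocyte (5967), astrocyte (5663) and wound healing and immune markers (67.9) of its group and the lowest choroid plexus markers (72.6). Klf9 was 206 CPM in PFC psilocybin 3 h replicate 7 (the others 283 to 330), which had the highest summed cortical neuron markers, 3710 CPM against 2204 to 3224. The part of tissue makeup in these values was not tested.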

How the results depend on the processing

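Of the members called between times in the hypothalamus after vehicle (2), 1 was called without the extraction pool, 0 within cages 1 to 4, 0 within cages 5 to 8 and 0 to 2 with a library left out. After psilocybin (3), 1 was called within cages 1 to 4, 1 within cages 5 to 8 and 1 when only the compared groups were fitted, all of them Hr, and 2 to 3 with a library left out. Keeping 1 extraction pool leaves fewer libraries per group, and the cause of the other losses was not tested. The log2 difference of Hr stayed between 0.47 and 0.75 after vehicle and between 0.92 and 1.04 after psilocybin, that of Dio2 between 0.64 and 0.84 and between 0.76 and 1.04, and that of Klf9 between 0.25 and 0.37 and between 0.27 and 0.47. Klf9 after psilocybin also lost its call without the extraction pool (adjusted p = 0.0547), with all 64 libraries (0.143), with only its groups (0.293) and without any 1 of 6 libraries (0.0692 to 0.108). Dio2, Thrb, Slco1c1, Klf9 and Thra kept their region calls in every setting, and Crym lost the one after psilocybin within cages 5 to 8. The count after psilocybin was 6 to 7 with a library left out. With the cage as replicate block 2 and 3 members were called between times, and with the mouse as replicate block 6 and 6 between regions; pairing changed no call. No member was called between psilocybin and vehicle in any setting (0 in all). The log2 differences of Dio2, Hr and Klf9 between times and of the region genes named above kept their sign in the settings run; the signs of the other members were not followed. Over all genes, 130 and 220 were called between times in the hypothalamus, against 12 to 1375 and 19 to 624 over the other settings, leave-outs aside, with the highest counts from limma-voom. Between psilocybin and vehicle 0 genes were called, against 13 (hypothalamus at 4 weeks) and 19 (PFC at 4 weeks) by DESeq2, and 3 and 1 in the PFC with all 64 libraries and without the extraction pool. The strict filter, 10 counts in every library, gave no value for Dio3. The 4 weeks comparisons rest on 7 or 8 libraries a group.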
